A study of Mus musculus with 12 samples.

Results

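The OAS genes were followed across the 4 treatment groups of a mouse melanoma cell line. They were taken as the rows of the count files whose symbol was Oas1a, Oas1b, Oas1c, Oas1g, Oas2, Oas3, Oasl1 or Oasl2, and all 8 were found among the 24421 gene symbols of each library. The study asked how B16F10 cells, a melanoma line from a C57BL/6 mouse, respond to a low dose of 5-aza-2'-deoxycytidine (DAC), an inhibitor of DNA methylation, and of sulforaphane (SFN), an isothiocyanate from cruciferous vegetables. RNA from 3 replicates of each of control, DAC, SFN and DAC+SFN was sequenced as stranded mRNA libraries. Controls received the solvent DMSO. DAC cells received 25 nM for 72 h, SFN cells were given SFN for the last 48 h, and DAC+SFN cells received 25 nM DAC for 72 h with 5 µM SFN in the last 48 h. The protocol in the labels gives 5 nM SFN for the cells with SFN alone, whereas the study's methods give the same micromolar dose for both groups, so any comparison between SFN and DAC+SFN carries this doubt. All groups are cultures of 1 cell line. By the study's methods the replicates of the treatments were separate runs of the experiment, which the labels do not state.

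2',5'-oligoadenylate synthetases (OAS) sense double-stranded RNA. On binding it they join ATP into 2',5'-linked oligoadenylates (2-5A), and 2-5A acts as a messenger in antiviral defence. The genes are induced by interferon through the factor ISGF3, which binds the interferon-stimulated response element (ISRE), and in tumor cells DNA methylation inhibitors are known for raising interferon-stimulated genes. Mice carry a cluster of Oas1 copies, the larger synthetases Oas2 and Oas3, and the OAS-like genes Oasl1 and Oasl2, whose proteins end in ubiquitin-like domains.

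In the GENCODE M21 annotation of mm10 (GRCm38), all 8 genes lie on chromosome 5. Oasl2 (chr5:114896936-114912234) and Oasl1 (chr5:114923240-114937915) are neighbours on the plus strand. The remaining 6 lie between 120730333 and 120907521, in the order Oas2, Oas3, Oas1c, Oas1b, Oas1g and Oas1a, all on the minus strand except Oas1b. Oas1b, the flavivirus resistance gene, encodes a truncated protein in C57BL/6 mice and is annotated as a polymorphic pseudogene. Oas1a and Oas1g were the closest pair, with 96.7% identity over 1104 coding bases, against 64.7% between Oasl1 and Oasl2. Of the 75-base windows of their transcripts, as long as 1 read, 862 of 1811 in Oas1a (47.6%) and 862 of 2336 in Oas1g (36.9%) occur in the other gene. Reads that aligned to several places had been discarded, so the counts of Oas1a and Oas1g come from the rest of each transcript and a misplaced read could pass between them. Such windows made up 6.75% in Oas1c and were not found in the other 5 genes. Genes on the opposite strand overlap Oas1c (Gm43069), Oasl1 (Gm13822) and Oas2 (Gm43068). The strand setting of the counting is not given in the sources used here, so reads of these pairs cannot be told apart.

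Promoters from RefSeq (GRCm38.p6), 250 bases before to 50 bases after the start of the gene, were matched for 6 of the 8 genes. No entry was found for Oas1b and Oas2. The ISRE core was searched as GAAA, any 2 bases and GAAA, and as its reverse complement TTTC, any 2 bases and TTTC, so that both strands were covered, with overlapping matches allowed. It was present in 4 of the 6 (Oas1a, Oas1g, Oas1c and Oas3) and in 1131 of all 32851 promoters of this length (3.44%). The 250 bases before the start are shown for the 4 genes on which the results below turn, with each match in capitals; Oas1a (chr5:120907526-120907775) and Oas1g (chr5:120887614-120887863) are written on the minus strand, Oasl1 (chr5:114922990-114923239) and Oasl2 (chr5:114896684-114896933) on the plus strand.
Oas1a: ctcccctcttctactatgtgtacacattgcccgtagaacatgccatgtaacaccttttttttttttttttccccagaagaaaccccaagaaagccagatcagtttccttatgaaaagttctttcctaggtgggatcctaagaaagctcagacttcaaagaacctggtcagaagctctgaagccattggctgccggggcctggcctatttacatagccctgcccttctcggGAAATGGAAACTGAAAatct
Oas1g: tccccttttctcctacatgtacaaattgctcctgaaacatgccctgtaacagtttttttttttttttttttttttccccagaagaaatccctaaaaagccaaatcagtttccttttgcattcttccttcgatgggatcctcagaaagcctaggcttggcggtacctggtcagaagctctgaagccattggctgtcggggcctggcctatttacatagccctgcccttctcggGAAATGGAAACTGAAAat
Oasl1: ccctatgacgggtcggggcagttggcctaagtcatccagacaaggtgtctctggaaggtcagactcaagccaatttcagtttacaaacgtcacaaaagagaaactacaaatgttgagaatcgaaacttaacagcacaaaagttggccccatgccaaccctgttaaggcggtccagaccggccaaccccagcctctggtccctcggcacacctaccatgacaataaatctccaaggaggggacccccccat
Oasl2: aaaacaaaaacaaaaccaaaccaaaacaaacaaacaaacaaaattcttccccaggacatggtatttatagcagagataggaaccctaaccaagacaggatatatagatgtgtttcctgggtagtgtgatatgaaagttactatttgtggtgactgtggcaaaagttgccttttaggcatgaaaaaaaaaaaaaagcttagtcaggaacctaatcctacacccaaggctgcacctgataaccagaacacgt
Oas1a and Oas1g held the same pair of overlapping matches, starting 20 and 14 bases before the start in Oas1a and 18 and 12 bases before it in Oas1g, and their promoters were 88.8% identical over 294 paired bases. Oas1c held a pair of overlapping matches 114 and 108 bases before its start and Oas3 held 1 match 75 bases before. Neither Oasl1 nor Oasl2 held a match in this window. The gamma-activated sequence (TTC, any 3 bases and GAA), a palindrome known from interferon-gamma responses, was present in Oas1a only among the 6 and in 8.30% of all promoters. CpG dinucleotides, the sites of DNA methylation, numbered 3 in Oas1a, Oas3 and Oasl2, 4 in Oas1g, 8 in Oasl1 and 9 in Oas1c, with a median of 7 over all promoters. These letters are a description, since these libraries measure neither methylation nor factor binding.

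Between 15880957 and 27291436 reads per library had been counted on genes. Levels are given as CPM (counts per 1e+06 counts of the library, with library sizes scaled by TMM), and 3 counts, the limit that a count of 0 allows, stand for 0.11 to 0.189 CPM, for counting error only. The cells had their melanocyte genes at high counts, from 4882 for Mitf to 304058 for Tyrp1, while each of 6 immune cell markers was at 0 to 3 counts in every library. Replicate numbers separated the libraries across groups: the 18 pairs of libraries with the same number and different treatment deviated from their group means together, with correlations over genes of 0.270 to 0.732. The replicate number was therefore kept as a block in the model, and the library numbers of the labels run with it, so these cannot be told apart. In bulk RNA, a change in RNA per cell and a change in the share of cells that hold it cannot be told apart.

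OAS transcripts were scarce in untreated cells. The 8 genes together had 269, 101 and 528 counts in control replicates 1, 2 and 3, which is 12.4, 4.35 and 27.1 CPM. They had 519, 123 and 1636 counts in the DAC libraries, 223, 145 and 357 in the SFN libraries, and 414, 241 and 717 in the DAC+SFN libraries. Per kb of exon, mean control levels were 2.95 CPM for Oas1a, 0.937 for Oas1b, 0.499 for Oas1g, 0.479 for Oas1c, 0.413 for Oasl2, 0.340 for Oas2, 0.234 for Oasl1 and 0.0143 for Oas3. The SD over 3 replicates was 1.94 for Oas1a, 0.838 for Oas1b, 0.482 for Oas1g, 0.456 for Oasl2 and 0.381 for Oas2. Gaps between neighbours in this order from Oas1b to Oas2 were smaller than this spread. The genes share the replicate pattern in it, so it does not decide whether they differed within libraries, which was not tested. With the longest transcript as length, Oasl2 was at 0.844 CPM per kb and stood above Oas1g at 0.591 and Oas1c at 0.503. Both lengths include the windows that Oas1a and Oas1g share, whose reads had been discarded. Their levels per kb may therefore be understated, and the place of Oas1g among the other members is uncertain. With DAC, Oas1a again led at 5.57 ± 4.05 CPM per kb (SD, n = 3) and Oas3 was last at 0.0316 ± 0.0369. Oas1d, Oas1e, Oas1f and Oas1h, the other Oas1 copies, had at most 4 counts in any library. Oas3, whose product is the largest synthetase, had 0 to 14 counts per library and was the only member under the filter of 1 CPM in at least 3 libraries, so 7 members were tested.

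Oas1a, an active synthetase, stood at 4.92, 2.28 and 9.50 CPM in control replicates 1, 2 and 3. The DAC replicates, in the same order, had 9.36, 3.51 and 18.7, the SFN replicates 3.15, 1.69 and 4.62, and the DAC+SFN replicates 5.55, 4.07 and 10.2. In each group replicate 2 was lowest and replicate 3 highest, and the groups overlapped. Oas1g, the other active Oas1 synthetase, stood at 0.874, 0.215 and 2.41 CPM in the controls, 2.28, 0.957 and 6.63 under DAC, 0.847, 0.452 and 1.27 under SFN, and 1.55, 1.15 and 2.90 under both drugs. Its order of replicates was the same in every group, and within each number the DAC libraries lay above their controls.

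Oas1b was at 1.47, 0.430 and 3.70 CPM in the controls, 2.28, 0.702 and 7.16 under DAC, 1.22, 1.24 and 1.51 under SFN, and 1.87, 0.862 and 3.46 under both drugs. Its SFN libraries were nearly level, and in the other groups replicate 3 was highest. Oas1c was at 1.47, 0.903 and 1.08 CPM in the controls, 1.78, 0.638 and 3.52 under DAC, 1.08, 0.790 and 1.31 under SFN, and 1.27, 1.44 and 2.66 under both drugs. For Oas1c the control spread was narrow and DAC replicate 2 was the lowest of all 12 libraries while DAC replicate 3 was the highest.

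Oas2, a synthetase with repeated OAS units, had the widest spread. Its CPM was 1.06, 0.0860 and 3.39 in the controls, 1.86, 0.191 and 8.80 under DAC, 1.04, 0.0376 and 1.23 under SFN, and 1.09, 0.144 and 2.85 under both drugs. Replicate 2 held only 1 to 3 counts of Oas2 in every group, at or under the limit that a count of 0 allows.

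Oasl1, whose protein lacks synthetase activity and is known in mice to restrain translation of Irf7 mRNA, had 0.874, 0.0860 and 0.873 CPM in the controls, 1.28, 0.574 and 3.48 under DAC, 0.80, 0.527 and 0.90 under SFN, and 1.96, 1.44 and 2.71 under both drugs. All 3 DAC+SFN libraries lay above all control and all SFN libraries. No control or SFN library reached 1 CPM, so Oasl1 passed the filter only through libraries with DAC. Its comparisons with groups without DAC carry this selection. Oasl2, an OAS-like protein that keeps synthetase activity in mice, had 1.66, 0.344 and 5.91 CPM in the controls, 2.57, 1.21 and 12.5 under DAC, 2.16, 0.527 and 3.64 under SFN, and 5.46, 2.39 and 8.41 under both drugs. Here the groups overlapped and replicate 2 was again lowest in each. DAC replicate 3 was the highest library for all 8 members, Oas3 included (0.524 CPM).

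**Figure D1:**
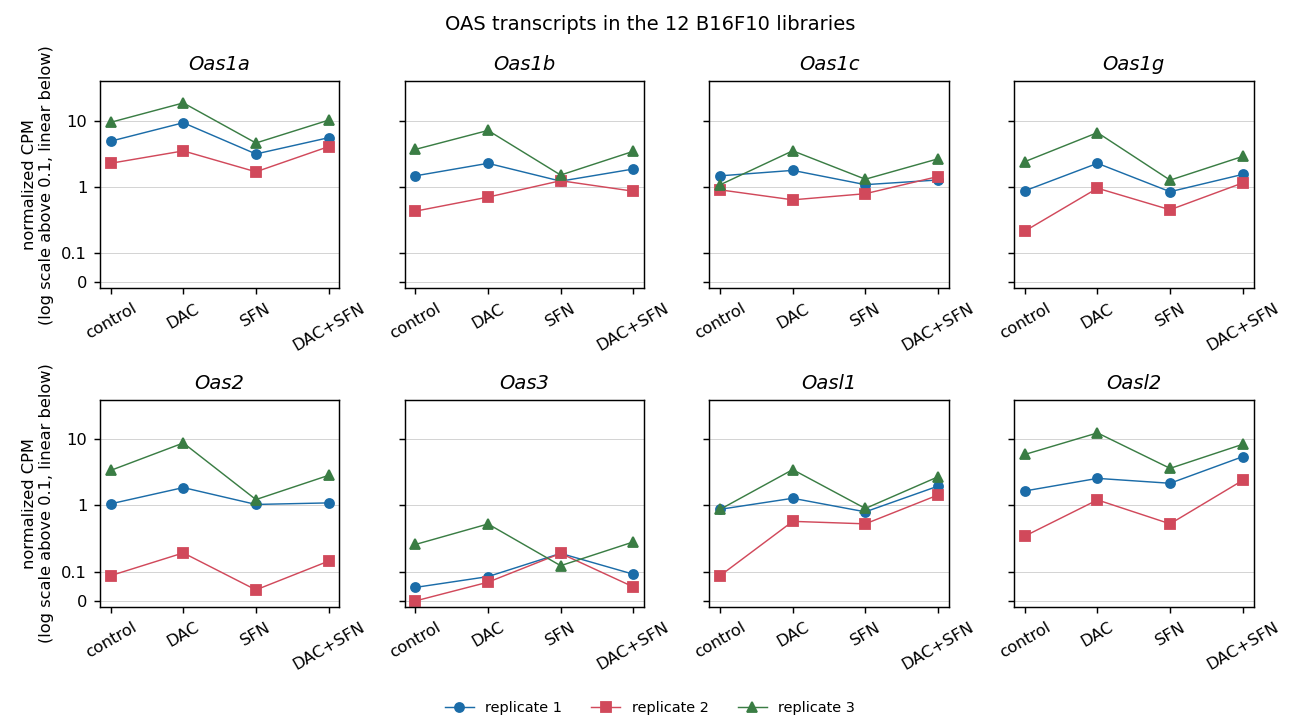
Normalized CPM of each OAS gene (y axis, log scale above 0.1 CPM and linear below) in the 4 groups (x axis), with 1 point per library and lines joining libraries of the same replicate number. Replicate 3 is highest and replicate 2 lowest in most panels, Oas2 in replicate 2 stays between 0.0376 and 0.191 CPM, and the DAC+SFN points of Oasl1 all lie above the control points.

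The OAS genes also differed by replicate number, which was looked at after the values were seen. All 7 tested members differed between replicate numbers (adjusted p between 1.90e-06 for Oas2 and 0.0297 for Oas1c, edgeR quasi-likelihood F-test), where 33.9% of all genes did. Against the mean of replicates 1 and 3, replicate 2 was lower by a fitted 18.6-fold for Oas2, 4.42-fold for Oasl2, 2.97-fold for Oas1g, 2.87-fold for Oas1b, 2.60-fold for Oas1a, 2.37-fold for Oasl1 and 1.74-fold for Oas1c. Of all genes, 1.33% were lower in replicate 2 by more than 2-fold at an adjusted p under 0.05. What the replicate numbers stand for is not given in the labels. Its part in the treatment results was not tested beyond fits with and without the block and fits with each number left out.

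DAC raised Oas1g, Oasl1 and Oasl2 when both pairs of groups that differ by DAC were averaged (DAC against control and DAC+SFN against SFN, which share no library). A gene was counted as changed at a Benjamini-Hochberg adjusted p under 0.05 and a fold change above 2. The log2 fold change was 1.33 for Oas1g (SE 0.23, adjusted p = 0.00554), 1.49 for Oasl1 (SE 0.28, adjusted p = 0.00932) and 1.27 for Oasl2 (SE 0.24, adjusted p = 0.00858), or 2.51-fold, 2.81-fold and 2.41-fold. Oas1a, at 1.98-fold (log2 0.99, SE 0.13, adjusted p = 0.00206), and Oas2, also at 1.98-fold (log2 0.99, SE 0.25, adjusted p = 0.0324), passed the adjusted p and lay just under the fold threshold. Oas1c at log2 0.73 (adjusted p = 0.0989) and Oas1b at 0.66 (adjusted p = 0.189) did not pass. Thus 3 of 7 members were changed, all higher, where 0.172% of all 11638 genes were changed upward and 0% downward, and 5 of 7 passed the adjusted p, where 3.07% of all genes did so upward. Of the 3, Oas1g holds the pair of ISRE matches shown above and Oasl1 and Oasl2 hold none in that window. Oasl1 passed the filter only through libraries with DAC, so it was tested only because it was high there. Without the replicate block the estimates were close (1.34, 1.53 and 1.23 for Oas1g, Oasl1 and Oasl2) but 0 members were changed, with adjusted p of 0.321 to 0.756 over the 7, and 0 of all genes. Leaving out SFN replicate 3 left only Oas1g changed (Oasl1 and Oasl2 both at adjusted p = 0.0599). Leaving out DAC replicate 3 lost Oasl2 (0.95, adjusted p = 0.0538), and 5 members were changed without SFN replicate 1 or without DAC+SFN replicate 3. Oas1a joined the 3 without control replicate 3, DAC replicate 2, SFN replicate 2 or DAC+SFN replicate 1 (log2 of 1.02 to 1.06). Oas2 joined them without DAC replicate 1 (1.16, adjusted p = 0.0183). Oas2 kept an adjusted p under 0.05 in 5 of 12 fits without 1 library, Oasl2 in 10, Oasl1 in 11, and Oas1a and Oas1g in all 12. Leaving out replicate number 1 in every group gave 0 changed members (adjusted p of 0.0773 or more). Leaving out number 2 gave Oas1g alone, and leaving out number 3 gave Oas1g and Oasl2. Over all genes, 20 were changed with all libraries in, 6 without SFN replicate 3 and 4 without replicate number 1.

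**Figure D2:**
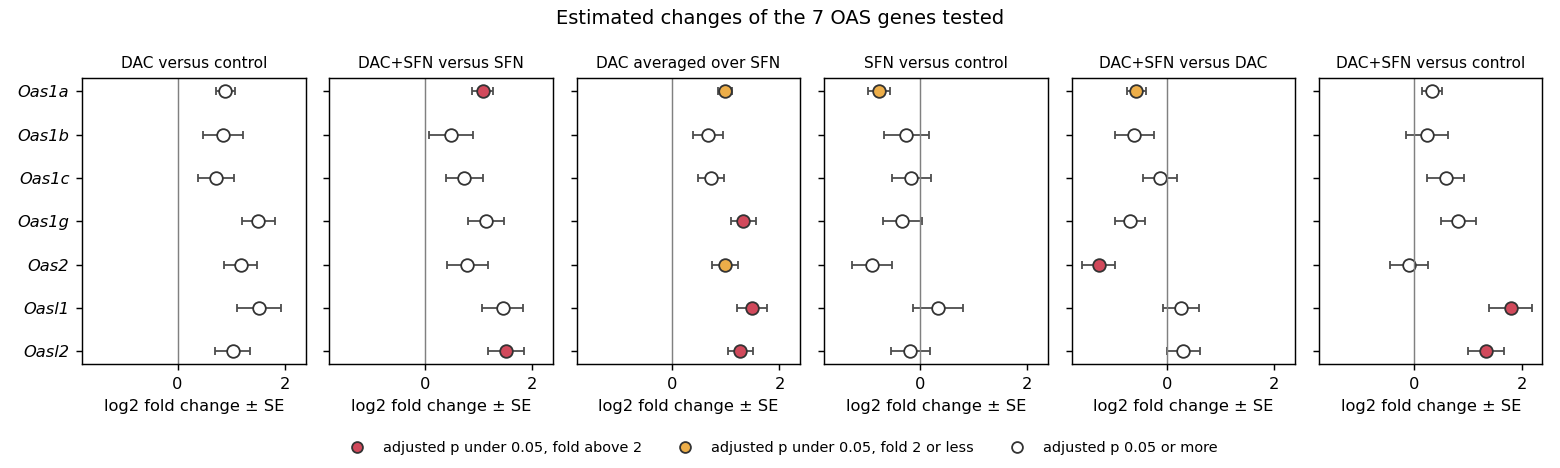
Estimated log2 fold change with its SE (x axis) of the 7 tested OAS genes (y axis) in 6 comparisons, from the model blocked on replicate number; filled red points passed the adjusted p of 0.05 and a 2-fold change, yellow points the adjusted p alone, open points neither. All 7 estimates lie right of 0 in the 3 DAC panels on the left, and with SFN only the Oasl1 point lies right of 0.

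With DAC alone no member was changed against control, though all 7 estimates were above 0, where 51.9% of all genes were. The largest was 1.53 for Oasl1 (SE 0.41, adjusted p = 0.174), followed by 1.51 for Oas1g (SE 0.30, adjusted p = 0.0590), 1.18 for Oas2 (SE 0.31, adjusted p = 0.167) and 1.03 for Oasl2 (SE 0.33, adjusted p = 0.270). Oas1a was close to the threshold at 0.89 (SE 0.18, adjusted p = 0.0590), while Oas1b and Oas1c were at 0.84 and 0.72 with adjusted p of 0.455 and 0.499. Changed genes were rare in this comparison at 0.0344% upward, and by an unadjusted p under 0.05 all members but Oas1c passed (0.000165 for Oas1a to 0.0380 for Oas1b), where 6.01% of all genes did so upward. In 6 of 7 members, all but Oas1c, DAC exceeded control within every replicate number, where 20.5% of all genes did. For Oas2 in replicate 2 this was 3 counts against 2, at or under the limit that a count of 0 allows, so its sign there is not informative. The call depended on the setting: Oas1g, Oas2, Oasl1 and Oasl2 were changed without the filter on low counts and when only the DAC and control libraries were fitted, Oas1g was changed in DESeq2, and Oas1a was changed without DAC replicate 2 (log2 1.05). Without DAC replicate 3 the estimates of Oas1b, Oas1c, Oas2, Oasl1 and Oasl2 fell to 0.30, 0.26, 0.54, 0.90 and 0.43.

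Adding DAC to SFN raised Oas1a and Oasl2, by 2.11-fold (log2 1.08, SE 0.20, adjusted p = 0.0263) and 2.85-fold (log2 1.51, SE 0.34, adjusted p = 0.0428), so 2 of 7 members were changed where 0.112% of all genes were changed upward. Oasl1 at 1.46 (SE 0.38, adjusted p = 0.0676) and Oas1g at 1.14 (SE 0.34, adjusted p = 0.0919) had estimates above 2-fold and missed the adjusted p. The other estimates were 0.79 for Oas2, 0.74 for Oas1c and 0.48 for Oas1b. DAC+SFN exceeded SFN within every replicate number in 6 of 7 members, all but Oas1b, where 23.4% of all genes did. For Oas2 in replicate 2 this was 3 counts against 1, at or under the limit that a count of 0 allows. Only Oasl1 had its groups fully apart, where 5.23% of all genes did in this direction. Both calls were lost without the block (adjusted p of 0.752 for Oas1a and 0.811 for Oasl2). Without SFN replicate 1, SFN replicate 3, DAC+SFN replicate 1 or DAC+SFN replicate 2 there were 0 changed members, without SFN replicate 2 there was Oas1a alone, and without DAC+SFN replicate 3 there were 4, Oas1a, Oas1g, Oasl1 and Oasl2. Oas1a was lost without replicate number 1, 2 or 3 (adjusted p of 0.562, 0.0635 and 0.0655). Oasl2 was lost without number 1 or 2 (0.562 and 0.145) and in the robust fit (0.0655). Over all genes, 13 were changed with all libraries in, and 0 without SFN replicate 3 or without replicate number 1.

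Whether the DAC difference depended on SFN was tested by the interaction of the drugs. No member passed in edgeR (adjusted p of 0.970 or more, the lowest unadjusted p being 0.329 for Oasl2), 0 of all genes passed in edgeR and DESeq2 gave 0 members as well. At an unadjusted p under 0.05 there were no members and 5.87% of all genes. Estimates ran from -0.39 for Oas2 (SE 0.50) to 0.48 for Oasl2 (SE 0.48), with SEs from 0.26 for Oas1a to 0.57 for Oasl1. These SEs are large beside the estimates, so the test does not show that the DAC difference was alike with and without SFN.

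**Figure D3:**
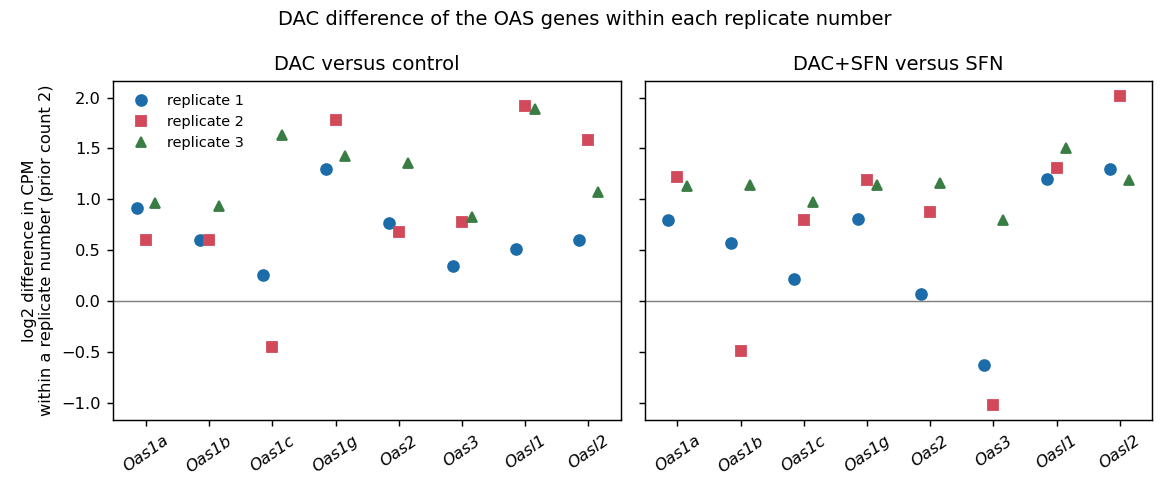
Log2 difference in CPM (y axis, prior count of 2) between DAC and control (left) and between DAC+SFN and SFN (right) for each OAS gene (x axis), with 1 point per replicate number. Points lie above 0 except Oas1c in replicate 2 on the left, and Oas1b in replicate 2 and Oas3 in replicates 1 and 2 on the right.

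SFN alone left no OAS gene changed against control, where 1.08% of all genes were changed upward and 0.198% downward. Estimates were below 0 for 6 of 7 members and above 0 for Oasl1, where 51% of all genes were above 0. Oas1a was lower by 0.76 on the log2 scale (0.591 of control, SE 0.20, adjusted p = 0.0200), under the adjusted p but not the fold threshold, as were 5.65% of all genes in this direction without regard to fold. Its adjusted p was 0.0740 without control replicate 1, 0.0815 without control replicate 3, 0.154 without SFN replicate 3 and 0.578 without the block. Oas2 was at -0.89 (SE 0.38, adjusted p = 0.133) and its estimate turned on single libraries. It was changed without SFN replicate 1 (-1.50, adjusted p = 0.0197) and without replicate number 1 in every group (-1.44, adjusted p = 0.0481). It lay near 0 without SFN replicate 3 (-0.055, adjusted p = 0.957). By an unadjusted p under 0.05, Oas1a and Oas2 passed (2 of 7), where 28.8% of all genes did, and DESeq2 called 0 members. The others lay between -0.33 for Oas1g and 0.34 for Oasl1, with adjusted p of 0.599 or more. In this comparison no member was lower in every library of SFN than in every control library, where 9.93% of all genes were.

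The combination changed the OAS-like pair against control. Oasl1 was higher by 3.47-fold (log2 1.79, SE 0.41, adjusted p = 0.00403) and Oasl2 by 2.52-fold (log2 1.33, SE 0.33, adjusted p = 0.00730), so 2 of 7 members were changed, where 2.33% of all genes were changed upward and 0.335% downward. Among the other members, Oas1g was at 0.82 (SE 0.33, adjusted p = 0.0706), Oas1c at 0.58 (SE 0.35), Oas1a at 0.32 (SE 0.19), Oas1b at 0.23 (SE 0.39) and Oas2 at -0.10 (SE 0.35), none under an adjusted p of 0.05. Oasl1 was the only member with its 3 treated libraries above all controls, where 15.1% of all genes were. Without the block neither was changed (adjusted p of 0.113 for Oasl1 and 0.499 for Oasl2). Oasl1 passed in all 6 fits without 1 of these libraries and in all 3 without a replicate number. Oasl2 was lost without DAC+SFN replicate 1 (1.12, adjusted p = 0.0529) and without replicate number 1 or 2. Oas1g joined them without DAC+SFN replicate 3, which gave 3 changed members.

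Adding SFN to DAC lowered Oas2 to 0.412 of its level with DAC (log2 -1.28, SE 0.31, adjusted p = 0.0135), the only member changed, where 0.198% of all genes were changed downward and 0.73% upward. Oas1a was at -0.57 (SE 0.18, adjusted p = 0.0391), which passed the adjusted p alone, as did 6.6% of all genes downward. Without DAC replicate 1, DAC replicate 3, DAC+SFN replicate 1 or DAC+SFN replicate 3 its adjusted p was between 0.126 and 0.227, and without the block it was 0.598. Oas1g was at -0.69 (SE 0.28, adjusted p = 0.113), Oas1b at -0.61 (SE 0.36) and Oas1c at -0.14 (SE 0.32), whereas Oasl1 and Oasl2 were at 0.27 (SE 0.34) and 0.30 (SE 0.31). The call of Oas2 rested on few libraries. It was lost without DAC replicate 3 (-0.64, adjusted p = 0.322), without DAC+SFN replicate 1 (-1.33, adjusted p = 0.0556), without DAC+SFN replicate 3 (-1.10, adjusted p = 0.103) and without the block (-1.45, adjusted p = 0.575). Without replicate number 3 in every group, Oasl2 was the changed member in its place, at 1.07.

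The share of OAS counts that fell on Oasl1 and Oasl2 was looked at after these values were seen. It was 20.4%, 9.90% and 25.0% in the controls, 17.9%, 22.8% and 26.1% under DAC, 28.3%, 19.3% and 31.1% under SFN, and 39.4%, 33.2% and 33.2% under both drugs. All 3 DAC+SFN libraries lay above the other 9. The exact binomial 95% intervals, which cover counting error only, ran from 27.3% to 44.3% over the DAC+SFN libraries and from 4.85% to 36.2% over the rest, so neighbouring libraries overlapped in counting error. Oas1a took 42.4% ± 9.02 (SD, n = 3) of OAS counts in control and 31.8% ± 3.09 with DAC+SFN. These shares were not tested.

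**Figure D4:**
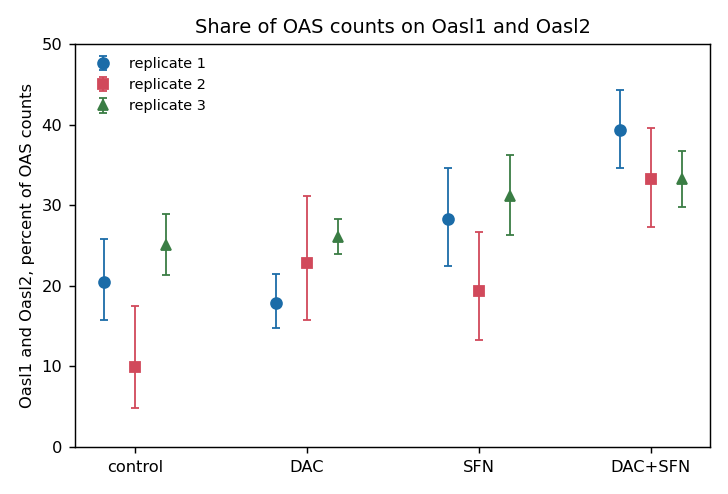
Percent of the counts of the 8 OAS genes that fell on Oasl1 and Oasl2 (y axis) in each library, by group (x axis), with exact binomial 95% intervals as bars. The DAC+SFN libraries sit between 33.2% and 39.4% and the other 9 between 9.90% and 31.1%.

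Genes of 2-5A turnover did not pass the test with DAC. For DAC averaged over SFN, Pde12, which encodes a phosphodiesterase that degrades 2-5A, was at -0.03 (SE 0.052, adjusted p = 0.815). Akap7, whose protein holds a phosphodiesterase domain, was at 0.03 (SE 0.056, adjusted p = 0.798), and Abce1, a ribosome recycling factor kept in the same list, was at -0.03 (SE 0.048, adjusted p = 0.762). Of this list of 3, 0 passed the adjusted p for DAC averaged over SFN and Akap7 alone passed in DAC+SFN against control at 0.24 (adjusted p = 0.0313), without reaching 2-fold, where 17% of all genes passed upward.

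Most genes of a list of other interferon-stimulated genes rose for DAC averaged over SFN, and the list was chosen with earlier results of these data known. Of 22 such genes, all tested, 17 passed the adjusted p upward and 0 downward for DAC averaged over SFN, and 7 were changed beyond 2-fold. These were Ddx60 at 1.40, Ifit3b at 1.22, Isg15 at 1.17, Ifit1 at 1.09, Mx2 at 1.08, Usp18 at 1.04 and Rtp4 at 1.03. Among them are a helicase linked to RNA sensing (Ddx60), a ubiquitin-like modifier (Isg15), its protease (Usp18) and RNA-binding proteins of the IFIT family. The median log2 fold change was 0.73 for this list, 0.99 for the 7 OAS genes and 0.0047 over all genes. Against SFN, 8 of the list passed the adjusted p upward in DAC+SFN, where 0.937% of all genes did. In DAC against control 0 passed in edgeR, where 0.18% of all genes did upward, while 18 had an unadjusted p under 0.05 and DESeq2 called 2, with a median of 0.74 beside 1.03 for the OAS genes. Without the block 0 of its genes were changed for DAC averaged over SFN.

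Upstream of the OAS genes, 7 of 16 tested sensors and signalling genes passed the adjusted p upward for DAC averaged over SFN. Of the 16, 0 passed downward. Of all genes, 3.07% passed upward and 0.172% were changed upward. Among the 7, only Irf7, an interferon regulatory factor, was changed beyond 2-fold, at 1.18 (SE 0.19, adjusted p = 0.00424). Without the replicate block 0 of the 16 were changed. The RNA helicases Ddx58 (RIG-I), Ifih1 (MDA5) and Dhx58 were at 0.80, 0.70 and 0.70, Irf9 at 0.53, Stat2 at 0.35 and Adar at 0.31, all past the adjusted p. Receptor and kinase genes were near 0 (Ifnar1 at -0.07, Ifnar2 at -0.03, Jak1 at 0.00, Tyk2 at 0.10) and did not pass. Interferon transcripts were hardly counted: Ifnb1 had 0 to 4 counts per library and Ifna1, Ifna2, Ifna4, Ifnk, Ifnl2 and Ifnl3 had 0 in all 12. With SFN against control, 3 of the 22 interferon-stimulated genes passed the adjusted p, all lower (Mx1 at -0.93, Cmpk2 at -0.77 and Parp9 at -0.38). Of the 16 sensors and signalling genes, 2 passed, both lower. Over all genes, 1619 of 11638 passed in either direction, and 5.65% passed downward.

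**Figure D5:**
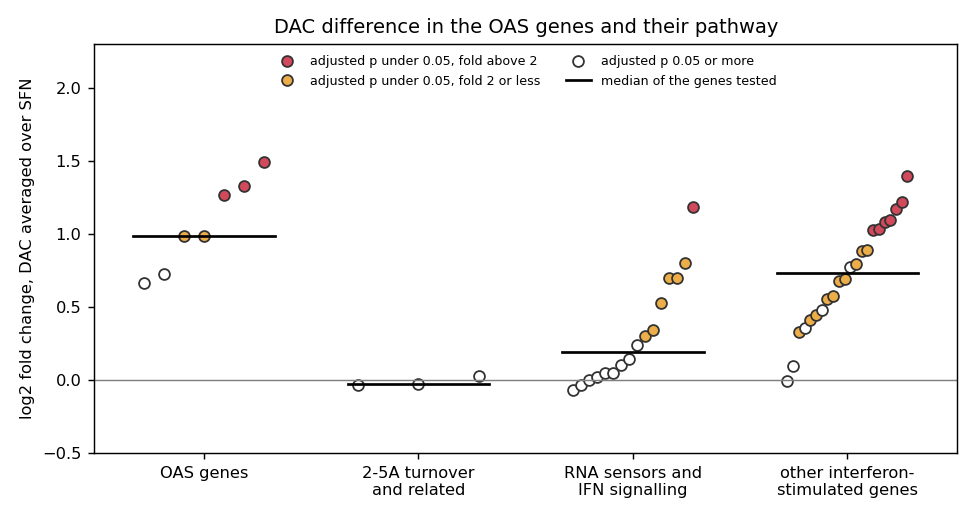
Log2 fold change for DAC averaged over SFN (y axis) of each tested gene in 4 lists (x axis), coloured by the test as in the plot of estimated changes, with the median of each list as a line. The medians lie at 0.99 for the OAS genes and 0.73 for other interferon-stimulated genes, and the 3 genes listed with 2-5A turnover lie between -0.03 and 0.03.

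The genes whose pattern over the 12 libraries was most like each member were found by the root mean square difference of mean-centred log2 CPM, as a description with no test. Libraries of 1 replicate number share their deviations, so likeness over libraries holds the replicate pattern as well as the treatments. Most of the nearest genes were interferon-stimulated. They were Rsad2 (0.27), Bst2 (0.28) and Ifi27 (0.28) for Oas1a, Isg15 (0.31), Mx2 (0.35) and Ddx60 (0.36) for Oas1g, and Xaf1 (0.31), Gbp7 (0.32) and Parp14 (0.38) for Oas1b. Oas1c was nearest to Dnaja4 (0.31), a gene of a heat shock protein, and then to Ifih1 (0.31) and Parp12 (0.32). Oas2 was farthest from its neighbours, Ifi44 (0.51), Rtp4 (0.57) and Igtp (0.66). Oasl1 was nearest to Ddx60 (0.31), Ifit1 (0.38) and Ifit3b (0.40), and Oasl2 to Mx2 (0.45), Irf7 (0.47) and Rtp4 (0.48). The SD of the member itself over the libraries was 0.63 for Oas1c and 1.82 for Oas2, on the same log2 scale.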

How the data were processed

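RNA of B16F10 cells, 3 replicates in each of 4 groups, was sequenced as 75-base reads. The authors deposited raw counts per gene symbol, 1 file per library. Per the labels and the study's methods, reads were checked with FastQC 0.11.7, trimmed with Trimmomatic 0.38, aligned to mm10 with TopHat2 2.1.1 and counted with HTSeq, keeping reads placed once. The gene annotation of the counting is not given in the sources used here. In the files Oas1a carries the Entrez number of Oas1g, so genes were followed by symbol.

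The deposited counts were tested in edgeR 4.0.16 (legacy quasi-likelihood fit, R 4.3.3). The filter kept 11638 genes that reached 1 CPM (15.9 to 27.3 counts at these depths) in 3 or more libraries. TMM was applied, and all 12 libraries were fitted together, blocked on replicate number (6 residual degrees of freedom), because the study's methods correct for a batch that they do not define. Benjamini-Hochberg adjustment ran over all genes tested. Fold changes carry a prior count of 0.125, and SE is the log2 fold change over the square root of F. Tests were two-sided. Fits were tested on simulated counts. No pair of replicates was a copy (chi-square per gene of 12.6 to 34.3).

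The members and the gene lists were chosen with earlier results of these data known. Some genes of the lists are not reported here and were left out of the list counts. The text names the 8 members, some list genes past a threshold, and the genes of 2-5A turnover. It also names the receptor and kinase genes and the 3 genes nearest to each member. Alternatives were DESeq2 1.42.0 and its size factors, no filter, at least 10 counts in every library, no block, a robust fit, only the groups compared, no fold threshold, a prior count of 2, each library or replicate number left out, and the longest transcript as gene length. Gene positions came from GENCODE M21 and promoters from RefSeq.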

Additional observations from a re-analysis of the deposited data

How the results depend on the processing

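The changed OAS genes were 0 with DAC, 0 with SFN, 2 with DAC+SFN, 1 for DAC+SFN against DAC, 2 for DAC+SFN against SFN, 3 for DAC averaged over SFN and 0 for the interaction. Without the replicate block all of these counts were 0, while the pairing by number was seen in all 18 pairs; over all genes, calls without the block were 0 with DAC, 13 with SFN, 169 with DAC+SFN, 9 against DAC, 0 against SFN and 0 averaged (4, 149, 310, 108, 13 and 20 with it). Without the block Oasl2 in DAC+SFN against DAC turned to -0.033 and Oas1c in the interaction to -0.067. Without the filter on low counts 4 members were changed with DAC and 4 against SFN, and fitting only the groups compared gave 4 and 4 as well, with 24 of all genes with DAC in either setting and 23 or 27 against SFN. At least 10 counts in every library left 3 members to test and 0 changed with DAC+SFN, 0 against DAC, 1 against SFN and 0 averaged (70 of all genes against DAC, 10 averaged). DESeq2 gave 1 member with DAC, with 11 of all genes, and 12 of all genes averaged; its adjusted p was not given for Oas1c and Oasl1 against SFN and for Oasl1 averaged. The robust fit gave 1 against SFN, with 8 of all genes. Without the fold threshold there were 1 with SFN, 2 against DAC and 5 averaged (21, 1619, 3683, 1879, 187 and 607 of all genes in the order above). Leaving out 1 library or replicate number gave 0 to 1 changed member with DAC, 0 to 1 with SFN and 1 to 3 with DAC+SFN. It gave 0 to 1 against DAC, 0 to 4 against SFN and 0 to 5 averaged. Over all genes these fits gave 0 to 6, 78 to 185, 214 to 421, 37 to 179, 0 to 28 and 4 to 29, in the same order. Over the same fits the estimates that changed sign, none of them called with all libraries in, ran with SFN from -0.88 to 0.50 for Oas1b, -0.57 to 0.14 for Oas1c, -0.61 to 0.29 for Oas1g, -0.078 to 0.83 for Oasl1 and -0.45 to 0.41 for Oasl2. They ran from -0.18 to 0.12 for Oas2 with DAC+SFN, against DAC from -0.44 to 0.34 for Oas1c, -0.0012 to 0.89 for Oasl1 and -0.065 to 1.07 for Oasl2, and against SFN from -0.21 to 1.05 for Oas1b and -0.042 to 1.40 for Oas2. For the interaction they ran from -1.04 to 0.24 for Oas1b, -0.30 to 0.48 for Oas1c, -1.21 to 0.25 for Oas2, -0.58 to 0.55 for Oasl1 and -0.0038 to 1.05 for Oasl2. No estimate changed sign with DAC or for DAC averaged over SFN under any alternative run. Where a single library decided the call of an OAS gene it is named in the report, and the cause was not tested. The longest transcript as length raised Oasl2 about alike in every group, from 0.413 to 0.844 CPM per kb in control, 0.852 to 1.74 with DAC, 0.331 to 0.676 with SFN and 0.850 to 1.74 with DAC+SFN, and Oas3 with SFN to 0.0352. Depth limits Oas3, which without the filter was at 1.17 with DAC (SE 0.99, adjusted p = 0.918).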
